A study of Mus musculus with 4 samples.

Results

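The EGR family loci were 3 stretches of the mouse genome around Egr1, Egr2 and Egr3, in which open chromatin was compared between monocytes of the femur and of the mandible. The members were all peaks that overlapped a 60 kb window on chromosome 18 from 34960000 to 35020000 for Egr1, a 60 kb window on chromosome 10 from 67340000 to 67400000 for Egr2, or a 50 kb window on chromosome 14 from 70290000 to 70340000 for Egr3, all on GRCm39. These windows held 27 of the 57090 peaks of the experiment, with 7 at Egr1, 6 at Egr2 and 14 at Egr3. The loci were selected from earlier results of the difference between mandible and femur in these same libraries. Values of that difference are therefore given as a description. Counts of members past a threshold in it stand only beside the share of all peaks, and are no test of the members.

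Egr1, Egr2 and Egr3 encode related zinc-finger transcription factors that bind GC-rich sites in DNA. They are immediate-early genes, whose transcription starts soon after a cell receives a growth factor, cytokine or stress signal and needs no new protein. Serum response factor, bound at CArG boxes together with ternary complex factors, carries such signals to their promoters. In myeloid cells Egr1 and Egr2 are known from the differentiation of monocytes and macrophages, and Egr2 is also the gene known as Krox-20. Egr3 is known from lymphocytes and muscle spindles.

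In ATAC-seq a transposase inserts sequencing adapters where chromatin is open, so that the reads in a peak measure how accessible it was. Femur and mandible monocytes were each measured in 2 libraries. All mice were 2 months old, with no treatment named, and the labels give them as male, whereas the study's methods speak of male and female C57BL/6J mice. Each library was made from 20000 cells of 4 pooled mice, and each batch held 1 femur and 1 mandible library from the same pool. Femur and mandible replicate 1 were batch A, and femur and mandible replicate 2 were batch B. The cells were the unbound fraction of a monocyte isolation kit and are labelled as CD11b+. The identity of the cells was not checked against marker genes here, because an annotation of GRCm39 was not used. A larger share of cells with an open locus and a greater opening in each cell cannot be told apart in such bulk libraries.

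The letters of a promoter of the family were read from RefSeq promoter windows on GRCm38.p6, which matched Egr2. The table lists 5 start sites of Egr2, and 4 of their 5 windows held a CArG box, against 1.63% of 32851 windows of the same length. The core of a cyclic AMP response element, TGACG on either strand, was in 3 of the 5 windows and in 20.8% of all windows. The EGR sites GCGTGGGCG and GCGGGGGCG, the full element TGACGTCA, the ETS letters GGAAGT and CCGGAAG and the AP-1 letters TGANTCA were in 0 of the 5 windows, and in 0.612%, 2.91%, 1.79%, 23.8%, 8.86% and 7.81% of all windows, in that order. Both strands were searched, and the shorter cyclic AMP motif also counts the full one. The 250 bases before the second start site are shown because they hold a CArG box, printed in capitals, and no annotated exon. They lie at chr10:67537316-67537565 on GRCm38.p6, plus strand, written from 5′ to 3′.
Egr2, second start site: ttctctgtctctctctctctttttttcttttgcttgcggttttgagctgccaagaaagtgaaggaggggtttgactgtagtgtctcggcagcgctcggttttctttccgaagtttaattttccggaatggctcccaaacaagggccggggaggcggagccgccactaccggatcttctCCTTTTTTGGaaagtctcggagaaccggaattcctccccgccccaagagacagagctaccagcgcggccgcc
This box, CCTTTTTTGG, lay from 72 to 63 bases before the start site. The windows of the last 3 start sites overlap one another and share the box CCATATATGG, with TGACG on one side of it and CGTCA on the other. A match of letters is a description only. The peaks below are on another build, so none was placed on a promoter.

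The libraries differed in depth, with total counts in peaks from 27464565 in mandible replicate 2 to 75294068 in femur replicate 2. Femur replicate 2 stood farthest from the rest. Over all peaks its log2 values deviated from the mean of the other 3 libraries with an SD of 0.419, against 0.232 to 0.318 for the others. Over the 27 members the SDs were closer, at 0.274 for femur replicate 2 and 0.228 to 0.312 for the others. Member counts ranged from 58 to 11527 reads. With every read taken as independent, counting alone gives a relative error of 13.1% and 0.931% for these. The reads of a pair were counted singly and are not independent, so both errors are lower limits. They cover counting error only. Values below are CPM, the reads of a peak scaled to a common library size, after loess normalization. Differences are the fitted log2 difference of mandible minus femur with its standard error (SE). The SE was derived from the statistic of edgeR's quasi-likelihood test, which borrows spread from all peaks. It is not the spread of a peak's own libraries.

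Most member peaks were more accessible in mandible monocytes, with the largest share at Egr3. Of the 27 peaks, 21 had a higher fitted value in mandible and 6 a lower one. This is 77.8% higher, beside 49.1% of all peaks. By locus, 4 of 7 peaks were higher at Egr1, 4 of 6 at Egr2 and 13 of 14 at Egr3. Without the peak of the highest mean count in each window, these were 3 of 6, 3 of 5 and 12 of 13. The median log2 difference was 0.16 over the members and 0.00 over all peaks. In 14 member peaks both mandible libraries lay above both femur libraries, a pattern found in 13.3% of all peaks. In 1 member, Peak_25707, both mandible libraries lay below, as in 13.8% of all peaks. The loci were proposed with this contrast in view, so nothing is read from the counts of calls that follow. Of the members, 1 passed an adjusted p of 0.05 in edgeR's quasi-likelihood test over all peaks, where 0.00701% passed in either direction. At an unadjusted p of 0.05, 4 members were higher in mandible beside 1.61% of all peaks, and 0 were lower beside 1.10%.

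**Figure D1:**
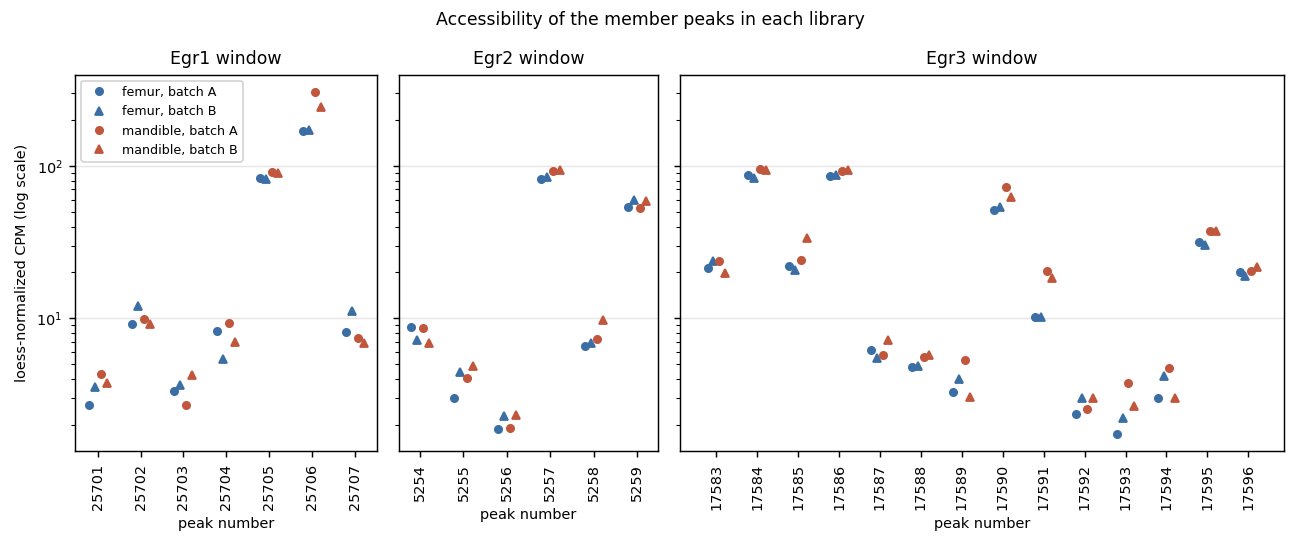
Loess-normalized CPM, on a log axis, of each of the 27 member peaks in each of the 4 libraries, ordered by position within each window and numbered as in the deposited peak set. Circles are batch A and triangles batch B. At Peak_25706 of the Egr1 window the mandible libraries stood at 306.9 and 243.9 and the femur libraries at 168.8 and 171.8.

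At Egr1 the difference sat in a single, very long peak. Peak_25706 ran for 7833 bp on chromosome 18 from 34992508 to 35000340 and was the peak with the highest mean count of the window. Its CPM was 168.8 in femur replicate 1 and 171.8 in femur replicate 2, whereas mandible replicate 1 had 306.9 and mandible replicate 2 had 243.9. In raw counts these were 7328 and 11527 reads in femur and 10837 and 6912 in mandible, before any scaling to the depth of the libraries. After normalization the femur libraries were close to each other, and both mandible libraries lay clear above them. Femur averaged 170.3 ± 2.11 (SD, n = 2) and mandible 275.4 ± 44.5 (SD, n = 2), so that mandible was 1.62 times femur. The log2 difference was 0.69 (SE 0.0943), and was 0.86 within batch A but 0.51 within batch B. The mandible libraries differed from each other more than the femur libraries did, and the size of the difference depended on which mandible library was used. With mandible replicate 1 left out it was 0.53, and with mandible replicate 2 left out it was 0.85. Without femur replicate 2 it remained at 0.69.

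The second long peak of the Egr1 window had a smaller difference. Peak_25705, of 1924 bp, lay 7.41 kb before Peak_25706 between the centres. Femur had 82.7 and 82.0 CPM and mandible 90.5 and 90.1 CPM, in the order of the batches. All 4 values lay within a narrow range, with the sites apart. The log2 difference was 0.13 (SE 0.107), and the batches gave 0.13 and 0.14. Peak_25706 held 65.1% of the CPM of the window. The sum of the other 6 peaks differed by 0.12 in batch A but 0.04 in batch B on the log2 scale, against 0.61 and 0.33 for all 7.

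The shorter peaks of the Egr1 window went both ways. Peak_25707, of 446 bp and 22.8 kb after Peak_25706, had the lowest difference of the window. Femur replicates 1 and 2 had 8.12 and 11.2 CPM, mandible replicates 1 and 2 had 7.42 and 6.86. The lower femur value was close to the mandible values, and the higher one came from femur replicate 2. The log2 difference was -0.44 (SE 0.245) with all libraries and -0.18 without femur replicate 2. The remaining 4 peaks, from 262 to 334 bp long, had differences from -0.15 to 0.37. In Peak_25702 and Peak_25703 the direction was opposite in the batches.

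**Figure D2:**
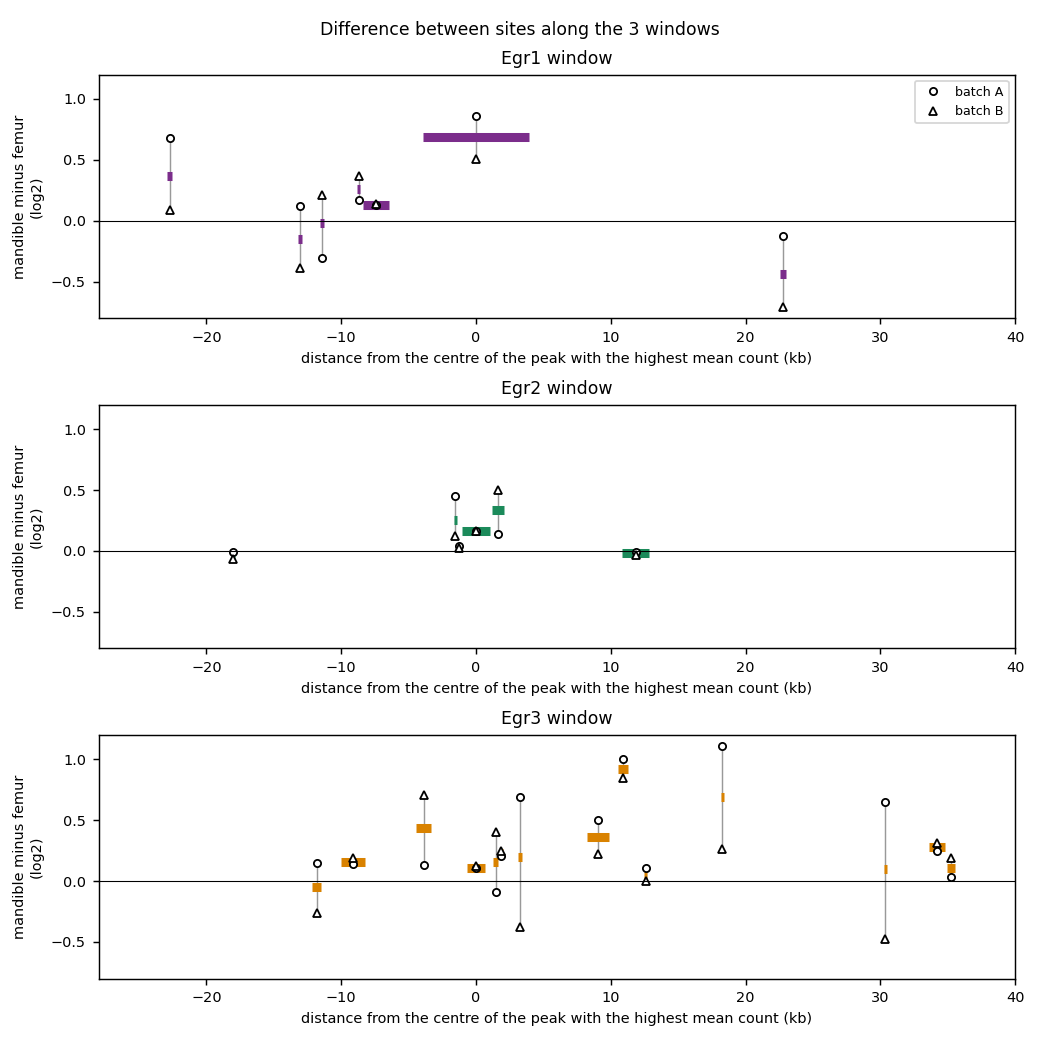
Log2 difference of mandible minus femur along the 3 windows, against the distance in kb from the centre of the peak with the highest mean count in each window. Coloured bars are the fitted values and span the length of each peak, circles are batch A and triangles batch B. The long Egr1 bar stood at 0.69, the Egr2 peak at 0 kb had both batches at 0.16, and the highest Egr3 bar stood at 0.92, 10.9 kb from the peak with the highest mean count.

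At Egr2 the differences were small. Peak_5257, of 2087 bp on chromosome 10 from 67371738 to 67373824, had the highest mean count of the window and 53.1% of its CPM. Its CPM was 82.5 in femur replicate 1 and 84.3 in femur replicate 2, whereas mandible had 92.1 in replicate 1 and 93.9 in replicate 2. The sites did not overlap, and the libraries of a site lay within 2 CPM of each other. Femur averaged 83.4 ± 1.27 CPM (SD, n = 2) and mandible 93.0 ± 1.31 CPM (SD, n = 2). The log2 difference was 0.16 (SE 0.106), and it was 0.16 in each batch.

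Next to this peak, Peak_5258 of 876 bp had the highest difference of the window. It had 6.57 and 6.84 CPM in femur, and 7.26 and 9.69 CPM in mandible. The upper value came from mandible replicate 2, and without it the log2 difference was 0.12 instead of 0.34 (SE 0.245). The lowest difference was that of Peak_5254, a 301 bp peak 18.0 kb before Peak_5257. Batch A had 8.72 CPM in femur and 8.67 in mandible, and batch B had 7.22 and 6.90. The batches set these values apart and the sites did not, with a log2 difference of -0.03 (SE 0.244). The other long peak of the window was Peak_5259, of 1989 bp and 11.9 kb after Peak_5257. At 53.5 and 59.9 CPM in femur and 53.1 and 58.7 in mandible, it had overlapping sites and a log2 difference of -0.02 (SE 0.128). Peak_5255 and Peak_5256 were below 5 CPM in every library, with differences of 0.25 and 0.02. Summed over the 6 peaks, the Egr2 window differed by 0.10 in each batch.

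At Egr3 the difference was spread over many peaks. The window held 14 peaks, and 99.0% of windows of the same width around other peaks held fewer. The median of those was 5 peaks. Of the 14 peaks, 13 had a higher fitted value in mandible, beside 49.1% of all peaks. In 9 of them both mandible libraries lay above both femur libraries, beside 13.3% of all peaks. Summed over the window, mandible minus femur was 0.24 in batch A but 0.21 in batch B, and without the peak of the highest mean count it was 0.28 and 0.24.

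Peak_17586, of 1295 bp on chromosome 14 from 70302963 to 70304257, had the highest mean count of the Egr3 window. Its CPM was 85.8 in femur replicate 1 and 86.9 in femur replicate 2, whereas mandible had 92.4 in replicate 1 and 94.4 in replicate 2. The sites were apart by a small margin, with a log2 difference of 0.11 (SE 0.105). The batches gave 0.11 and 0.12.

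The highest difference of all members was that of Peak_17591, of 753 bp from 70314136 to 70314888, 10.9 kb after Peak_17586. Its CPM was 10.2 in both femur libraries, 20.4 in mandible replicate 1 and 18.4 in replicate 2. The mandible values were well above those of femur, with means of 10.2 ± 0.0257 (SD, n = 2) and 19.4 ± 1.42 (SD, n = 2) and a ratio of 1.90. The log2 difference was 0.92 (SE 0.206), with 1.0 in batch A but 0.85 in batch B. It lay between 0.86 and 1.01 with any 1 library left out.

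The neighbouring Peak_17590, of 1604 bp, was named after its values were seen. Femur had 51.3 and 53.4 CPM, and mandible had 72.6 and 62.1. Both mandible values were higher, and the log2 difference was 0.36 (SE 0.127), and the batches gave 0.50 and 0.22. The edge of the next peak, Peak_17592, lay less than 2 kb beyond Peak_17591, and its difference was 0.04. The lowest difference of the window was -0.05 (SE 0.187), at Peak_17583. Its CPM was 21.3 and 23.6 in femur and 23.6 and 19.7 in mandible, and the direction was opposite in the batches. The remaining 9 peaks ranged from 0.10 to 0.69. The upper end was Peak_17593, at 1.74 and 2.22 CPM in femur and 3.74 and 2.66 in mandible, and the batches gave 1.11 and 0.26.

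The other long peaks of the Egr3 window, also named after their values were seen, were all higher in mandible. Peak_17584, of 1838 bp, had 86.8 and 82.8 CPM in femur and 95.4 and 94.4 in mandible, a log2 difference of 0.16 (SE 0.106). Peak_17595, of 1186 bp and 34.2 kb after Peak_17586, had 31.4 and 30.2 CPM in femur and 37.5 in both mandible libraries, a log2 difference of 0.28 (SE 0.152). In both peaks the sites were apart and each batch gave a similar size. Peak_17585, of 1141 bp, had 21.9 and 20.6 CPM in femur and 24.0 and 33.8 in mandible. Its mandible libraries lay far apart, and the log2 difference of 0.44 (SE 0.191) became 0.19 without mandible replicate 2 and 0.67 without mandible replicate 1. The batches gave 0.13 and 0.71.

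Per kb of peak, the order of the 3 loci was not the same in femur and mandible. In femur the Egr3 window stood at 33.2 ± 0.0201 CPM per kb (SD, n = 2), the Egr2 window at 28.4 ± 1.11 and the Egr1 window at 25.2 ± 0.411. In mandible the Egr3 window stood at 38.9 ± 0.496, the Egr1 window at 35.1 ± 4.11 and the Egr2 window at 30.4 ± 1.16. Egr1 was thus the lowest in both femur libraries, at 24.9 and 25.5, and lay above Egr2 in both mandible libraries, at 38.0 against 29.5 in batch A and 32.2 against 31.2 in batch B. Egr3 was the highest in all 4 libraries. In mandible, Egr1 lay within its own spread of Egr3, and in batch B it lay close to Egr2. In mandible replicate 1 the Egr1 window reached 38.0 and the Egr3 window 39.2. Peak_25706 made up 7833 of the 11351 bp of peaks in the Egr1 window and 65.1% of its CPM. The sum of the other 6 peaks differed between sites by 0.12 in batch A and 0.04 in batch B on the log2 scale. The loci were selected on the difference between sites, so the change of order is a description.

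Among single peaks the level per kb spanned from 8.66 to 69.4 CPM per kb. The highest was Peak_17586 of Egr3, above 98.3% of all peaks, and the lowest was Peak_5258 of Egr2, above 0.303% of them. Peak_25706 of Egr1 had 28.5 CPM per kb, above 75.9% of all peaks, so its rank of 87 by mean CPM went with its rank of 16 by length. Of the 57090 peaks, 75 were over 4000 bp long. Their median log2 difference was 0.01, 44 of the 75 were higher in mandible, and 6, itself included, had a difference at or above that of Peak_25706. Peaks over 1000 bp made up 33.3% of the members and 15.0% of all peaks. Of these 9 long members, 8 were higher in mandible in both batches, and Peak_5259 was lower in both. Of all 8541 peaks over 1000 bp, 1650 were higher in both and 1681 lower in both. The members were selected on this difference.

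**Figure D3:**
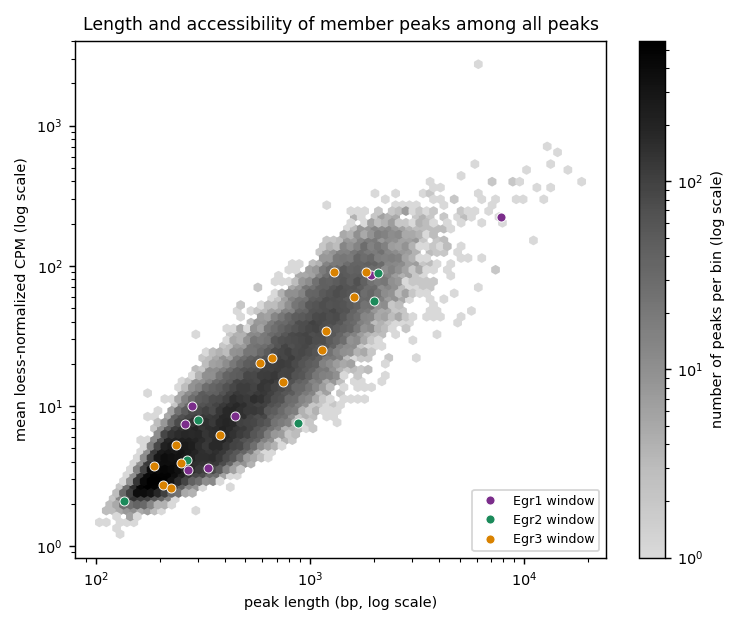
Mean loess-normalized CPM against peak length, both on log axes, for all 57090 peaks in grey bins and the 27 members as coloured points. Peak_25706, at 7833 bp and 222.9 CPM, lies apart from the other members, which were at most 2087 bp long.

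The direction of the difference was the same in both batches for most members. It was higher in mandible in both batches in 18 peaks, lower in both in 3 and opposite in 6. Of all 57090 peaks, 11612 were higher in both and 12540 lower in both. Opposite directions made up 22.2% of the members, beside 57.7% of all peaks. Both batches were among the libraries from which the loci were selected, so this is no replication of the difference. Over the members, the median log2 difference was 0.14 in batch A but 0.16 in batch B. The 6 peaks with opposite directions were 4 in the Egr3 window and 2 in the Egr1 window, and none of them was over 1000 bp long. Without femur replicate 2, 24 of the 27 members were higher in mandible, and without femur replicate 1, 18 were. The share of all peaks with these libraries left out is not given here, so nothing is read from these counts.

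**Figure D4:**
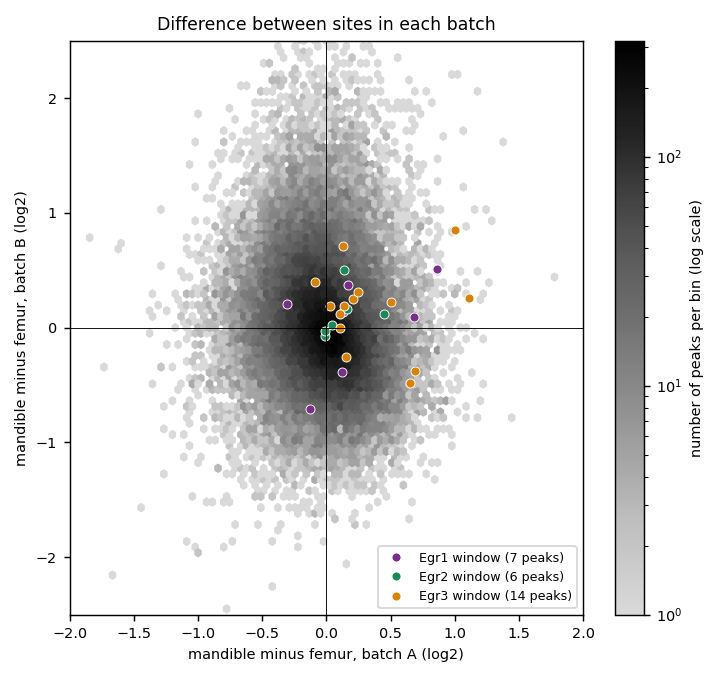
Log2 difference of mandible minus femur in batch B against that in batch A, for all peaks in grey bins and the 27 members as coloured points, with 62 of the 57090 peaks beyond the axes. Peak_17591, at 1.0 and 0.85, and Peak_25706, at 0.86 and 0.51, lie in the upper right. In the quadrant where both batches were higher in mandible lie 18 of the 27 members and 11612 of all peaks.

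The comparison between batches was not itself used to choose the loci, so it was tested. Choosing loci by a difference between sites may still favour peaks whose batches are alike. In edgeR's quasi-likelihood test of batch B against batch A, with the skeletal site in the model, 0 of the 27 members passed an adjusted p of 0.05, beside 0.0403% of all peaks. At an unadjusted p of 0.05, 0 of 27 members passed, beside 2.93% of all peaks. In DESeq2 both counts were 0 as well, where 2 and 462 of all peaks passed. Under the other alternatives 0 members passed the adjusted threshold. At the unadjusted one, 1 member passed with TMM (Peak_25706, with 1916 of all peaks), 1 with library size alone (Peak_25706, with 1678) and 1 with batch as the only term (Peak_25704, with 1889), against 1672 of all peaks in the fit given first. The fitted log2 differences of batch B minus batch A ranged from -0.51 to 0.42. The members with the lowest edgeR p were Peak_25706, with -0.15 (SE 0.0804), and Peak_25704, with -0.51 (SE 0.282), each with an adjusted edgeR p of 0.9999. At Peak_25706 this lower value in batch B was that of the mandible library, since the femur libraries differed by 3 CPM. For Peak_5257, Peak_17586 and Peak_17591 the batch differences were 0.03 (SE 0.121), 0.02 (SE 0.120) and -0.07 (SE 0.246). With so few of all peaks past the thresholds, 0 of 27 is near the share of all peaks and is no result about the members. A p that misses the threshold does not show that the pools of mice were alike. With 2 libraries a site, an exact permutation test of 1 peak cannot give a two-sided p below 0.333.

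The pattern of Peak_25706 over the 4 libraries was compared with the 21464 peaks of at least 10 CPM, by the Euclidean distance of the log2 values centred on their own mean. The 5 nearest were Peak_1081 on chromosome 1 from 78514180 to 78514651 (distance 0.17), Peak_27150 on chromosome 19 from 5842989 to 5848532 (0.26), Peak_20854 on chromosome 16 from 10797159 to 10797970 (0.27), Peak_17591 (0.27) and Peak_31811 on chromosome 2 from 131265537 to 131265951 (0.28). Among them, Peak_17591 was the Egr3 peak with the highest difference. Both loci were selected on the difference between sites. The same search for Peak_5257 and Peak_17586 had no member among the 5 nearest. Their nearest members were Peak_17586 at rank 49 for Peak_5257, and Peak_25705 at rank 56 for Peak_17586. Of the 5 nearest to Peak_25706, Peak_27150 was the one of similar size, at 5544 bp. Its CPM was 90.8, 150.6, 72.1 and 120.8 in femur 1, mandible 1, femur 2 and mandible 2. Likeness over 4 libraries is a description and carries no test.

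Of the 6 peaks nearest to the windows on their outer sides, 5 had a lower fitted value in mandible, beside 29086 of all 57090 peaks. The direction was opposite in batches A and B in Peak_5260, at 0.07 and -0.26, and in Peak_17582, at 0.61 and -0.56. In the others it was the same in both batches. At Egr1, Peak_25700 lay 22.4 kb before the window with -0.20, beside 0.37 for the first member. Peak_25708 lay 0.125 kb beyond the window with a difference of 0.21, and the last member inside it, Peak_25707, had -0.44. At Egr2, Peak_5253 lay 0.155 kb before the window with -0.51, and the first member, Peak_5254, had -0.03. Peak_5260 lay 2.08 kb after it with -0.08, beside -0.02 for the last member. At Egr3, Peak_17582 lay 0.669 kb before the window with -0.03 beside -0.05 for the first member, and Peak_17597 lay 4.46 kb after it with -0.50 beside 0.11 for the last. In the RefSeq order of genes on GRCm38, the nearest neighbours were Reep2 and Etf1 for Egr1, Nrbf2 and Ado for Egr2, and Pebp4 and Bin3 for Egr3. The peaks were not assigned to any of these genes here.

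The scaling between libraries moved the size of the differences. Peaks with many counts were higher in mandible as a whole when a single factor was used per library. Among 188 peaks within 1.25 times the CPM of Peak_25706, the median log2 difference was -0.01 with loess normalization, 0.27 with TMM, 0.17 with library size alone and 0.28 with DESeq2. Peak_25706 lay 0.70 above this median with loess and 0.72 above it with each of the other 3. In the same way Peak_5257 lay 0.16 and Peak_17586 lay 0.12 above the peaks of like CPM under all 4 scalings. Library size alone also moved the median of all peaks to -0.12. Over the loess fit and its 10 alternatives, 14 of the 27 members were higher in mandible each time, 1 (Peak_25707) was lower each time, and 12 did not keep 1 direction. Of the 9 peaks over 1000 bp, 8 were higher each time. The filters on low counts left the member values as they were, and batch as a term moved them little. Agreement under these alternatives was therefore fixed in advance. The share of all peaks that kept 1 direction was not computed.

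**Figure D5:**
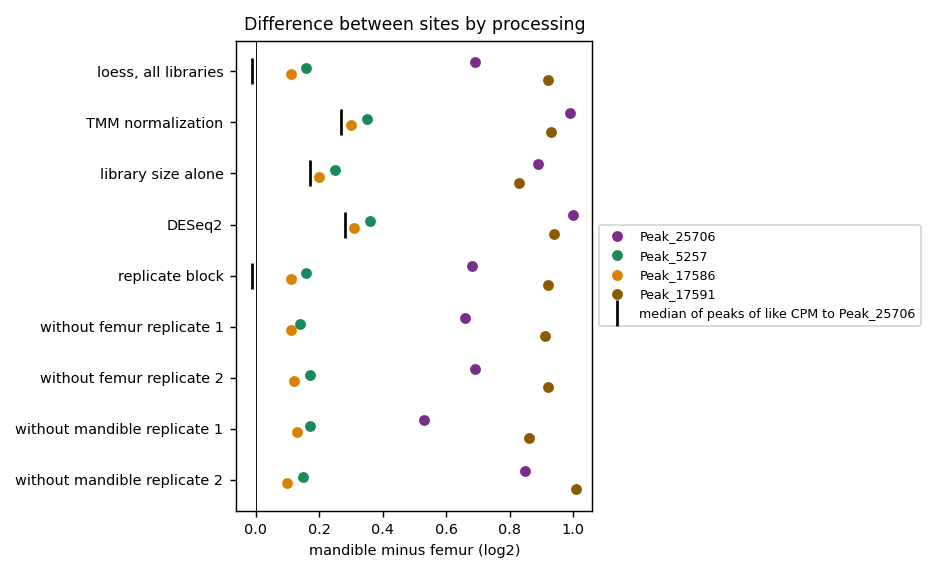
Log2 difference of mandible minus femur for 4 member peaks under each scaling, with batch as a term and with each library left out. Values with a library left out are differences of mean log2 CPM, and the rest are fitted. Vertical ticks mark the median of 188 peaks of like CPM to Peak_25706 where it was computed. Peak_25706 ranged from 0.53 to 1.0 and Peak_17591 from 0.83 to 1.01, and all points lie above 0.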

How the data were processed

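The files of 4 ATAC-seq libraries were analysed. According to the study's methods, the authors trimmed reads (Trimmomatic), aligned them to GRCm39 (Bowtie2), discarded poorly mapped reads and duplicates (Picard), called peaks for each pair of duplicates (Genrich) and merged them (bedtools). The deposited values are raw counts of reads per merged peak from featureCounts 2.0.6, with each read of a pair counted singly and fragments up to 1000 bp. A shift of reads for the transposase is not given in the sources used here. Peaks that were called on pairs and merged cannot be compared for presence in a library, so only counts were compared.

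Counts of all 57090 peaks were fitted in R 4.3.3 with edgeR 4.0.16 (glmQLFit, glmQLFTest) and limma 3.58.1 (loess offsets of span 0.3 on mean log CPM, with a prior count of 0.5), after the study's methods, with the skeletal site as the term. The default filter removed 0 peaks. Batch was tested in a model with site and batch. Benjamini-Hochberg adjustment of p-values ran over all peaks. The fit was tested on simulated data. P-values between sites rest on the spread between pools of mice within a site, which edgeR moderates with the spread over all peaks. They therefore do not rest on the pools alone. In the test of batch, the difference between pools is the term tested. Alternatives were TMM, library size alone, DESeq2 1.42.0, filters on low counts, the replicate block and each library left out. With a library left out, the difference was that of mean log2 CPM, with the loess offsets made again. Same-numbered libraries share a pool of mice according to the labels, and their deviations from the site means had a correlation of -0.167 over peaks.

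The members and lists were chosen with earlier results of these data known. The rule for naming took, in each window, the peaks with the highest mean count and the highest and lowest difference. Other peaks were named after their values were seen, and the likeness search used the peak with the highest mean count of each window. Genes over peaks, the list of EGR pathway genes, markers of cell types and the letters of peaks were not analysed here, since an annotation of GRCm39 was not used.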

Additional observations from a re-analysis of the deposited data

How the results depend on the processing

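The log2 difference of mandible minus femur was larger at peaks of high count when 1 factor scaled each library. With TMM, library size alone and DESeq2 it was 0.35, 0.25 and 0.36 for Peak_5257 and 0.30, 0.20 and 0.31 for Peak_17586. For Peak_25706 it was 0.99 with TMM and 1.0 with DESeq2. The value relative to peaks of like CPM is given above. With each library left out in turn, Peak_5257 ranged from 0.14 to 0.17, Peak_17586 from 0.10 to 0.13 and Peak_25706 from 0.53 to 0.85. The counts of calls between sites are no test of the members. Members past an adjusted p of 0.05 were 2 with DESeq2 (15 of all peaks) and 1 with edgeR (4 of all peaks), the added one being Peak_17591. Members past an unadjusted p of 0.05 were 4 in the loess fit (1548 of all peaks), 9 with TMM (2607) and 9 with DESeq2 (1606). Scaling by library size alone gave 6 (3258), among them Peak_25707, which was lower in mandible. Members higher in mandible numbered 17 to 24 over the 10 alternatives, without the share of all peaks beside them. The 17 came with library size alone, which also moved the median of all peaks to -0.12. With the replicate block, Peak_25706 was at 0.68 and 1 member and 57 of all peaks passed the adjusted threshold, beside 1 and 4 without it. The unadjusted count was 4 members with and without the block. Keeping peaks with at least 1 count keeps every peak and so tests nothing. The largest fitted SE among the members was 0.357, at Peak_5256. Counting alone gives a relative error of at least 13.1% at the lowest member count of 58 reads, since reads of a pair are not independent.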
